A study of Mus musculus with 12 samples.

Results

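The genes described here are 40 genes of the mammalian cell cycle among the 17922 genes of the expression table. They were chosen by symbol from a list that spans G1 cyclins and their kinases, kinase inhibitors, the Rb family, replication factors, and the cyclins, kinases and chromosome proteins of mitosis. All 40 were found in the table, and all 40 passed the filter on low counts in every comparison. RNA was sequenced from primary mouse rib chondrocytes, the matrix-producing cells of cartilage, of a mixed strain in which C57BL/6 dominates. The cells had been released from rib cartilage with collagenase, plated at confluence in medium with fetal calf serum and cultured overnight before lysis. The 4 groups held 3 samples each. The LDH knockouts were Col2-Cre:Ldha(fl/fl):Ldhb+/- mice at postnatal day 5 (P5), with Ldha deleted in chondrocytes and 1 Ldhb allele lost, and the Acly knockouts were Col2-Cre:Acly(fl/fl) mice at embryonic stage E18.5. Each knockout was set against control littermates of the same age, whose own genotype, including whether they carried Cre, the labels do not give. Col2-Cre acts in cells that express the collagen II gene and their descendants, so other cells of the culture keep the floxed gene. The labels do not say whether the samples of a group came from separate animals or pools, so p-values measure only the spread between these samples.

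The cell cycle is driven by cyclins and the cyclin-dependent kinases they activate. D-type cyclins with Cdk4 and Cdk6 act in G1, and cyclin E with Cdk2 acts at entry into S phase. Both inactivate Rb and its relatives and so free E2F factors, which switch on genes for DNA replication. Cyclin A, cyclin B and Cdk1 then carry the cell into mitosis, where aurora and polo kinases, the spindle checkpoint and chromosome proteins act. Kinase inhibitors such as p21, encoded by Cdkn1a, hold the kinases back. In cartilage, proliferating chondrocytes form columns in the growth plate, leave the cell cycle and enlarge as hypertrophic cells, and the cells of the surrounding perichondrium divide as well.

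Genes of replication and genes of mitosis are known for different promoter elements, and a few promoters are shown because these gene groups also differed in their levels below. Of the 40 genes, 32 had a promoter window in RefSeq (build GRCm38.p6), from 250 bases before to 50 bases after the transcription start. No window was printed or searched for Mcm4, Foxm1, Ccnd1, Rb1, Ccne2, Ccnd2, Aurkb and Ccna2. Each sequence below holds the 120 bases just before the start, 5′ to 3′ on the strand of the gene, which is the minus strand in all 5 cases. Capitals mark 3 elements on either strand. TTTGAA is the cell cycle genes homology region (CHR), bound by MuvB complexes. TTTGGCGC is an E2F site. The third element is the box bound by NF-Y, which reads CCAAT on its own strand. Where that box lies on the opposite strand it appears as ATTGG. The positions are chr10:69352913-69353032 for Cdk1, chr4:118437344-118437463 for Cdc20, chr7:135716380-135716499 for Mki67, chr13:100786487-100786606 for Ccnb1 and chr1:128359706-128359825 for Mcm6.
Cdk1: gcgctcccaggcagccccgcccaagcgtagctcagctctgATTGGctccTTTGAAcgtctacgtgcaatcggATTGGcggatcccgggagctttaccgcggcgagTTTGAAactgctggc
Cdc20: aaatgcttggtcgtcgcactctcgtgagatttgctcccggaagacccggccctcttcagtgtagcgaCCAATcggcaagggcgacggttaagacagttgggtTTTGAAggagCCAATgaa
Mki67: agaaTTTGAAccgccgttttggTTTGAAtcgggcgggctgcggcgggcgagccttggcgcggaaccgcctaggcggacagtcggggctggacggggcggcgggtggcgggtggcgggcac
Ccnb1: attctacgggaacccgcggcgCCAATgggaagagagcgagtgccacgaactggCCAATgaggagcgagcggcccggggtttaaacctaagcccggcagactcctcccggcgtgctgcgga
Mcm6: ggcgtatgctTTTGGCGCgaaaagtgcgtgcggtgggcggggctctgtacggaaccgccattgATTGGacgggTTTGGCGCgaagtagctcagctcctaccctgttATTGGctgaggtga

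Both strands of every window were searched, also for a second E2F site, TTTCCCGC, and no match of one motif overlaps another in the stretches shown. TTTGAA lay in the windows of 9 of the 12 mitotic genes with a window (75.0%), 1 of the 9 replication and nucleotide genes (11.1%), and 15.5% of the 14009 genes of the table with a window. CCAAT lay in 11 of the 12 mitotic genes and 8 of the 9 replication and nucleotide genes, against 42.3% of all genes. One or other E2F site lay in 4 of the 9 replication and nucleotide genes (44.4%: Mcm3, Mcm5, Mcm6 and Mcm7), in 0 of the 12 mitotic genes, and in 2.84% of all genes. The mitotic promoters printed above thus carry TTTGAA in Cdk1, Cdc20 and Mki67 but not in Ccnb1, and Mcm6 carries TTTGGCGC at 2 places. Such matches describe the letters of these windows and show no binding.

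The 12 libraries held between 26362407 and 28154143 expected counts, and 3 counts corresponded to between 0.104 and 0.118 CPM (counts scaled to a fixed total per library). Levels below are CPM scaled by TMM factors over all 12 samples, fold changes come from edgeR fits, and differences are log2 values with their standard errors. An adjusted p is that of edgeR's quasi-likelihood test with Benjamini-Hochberg adjustment over all genes tested, and a gene passed where it was under 0.05. Ldha, the main lactate dehydrogenase gene of most tissues, was at 84.0, 93.7 and 97.6 CPM in the LDH knockouts and at 904, 839 and 940 CPM in their controls. Ldhb was not lower in the LDH knockouts, at 15.9 ± 1.16 against 12.4 ± 0.604 CPM (SD, n = 3 each). Acly, which encodes ATP citrate lyase, was at 78.9, 48.3 and 82.4 CPM in the Acly knockouts and at 188, 182 and 191 CPM in their controls. Chondrocyte markers summed to between 9335 and 31178 CPM in every library, and summed markers of fibroblast and perichondrium, muscle, endothelium, red blood cell and fat cell were above 0 everywhere. Signal from 4 Y-linked genes summed to at most 0.0367 CPM in each LDH knockout and to 93, 102 and 0.59 CPM in the LDH controls, so these groups differed in it as well as in genotype. In the Acly set it also varied, at 0.0755, 74.3 and 82.8 CPM in knockouts and 0.375, 121 and 2.83 CPM in controls.

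**Figure D1:**
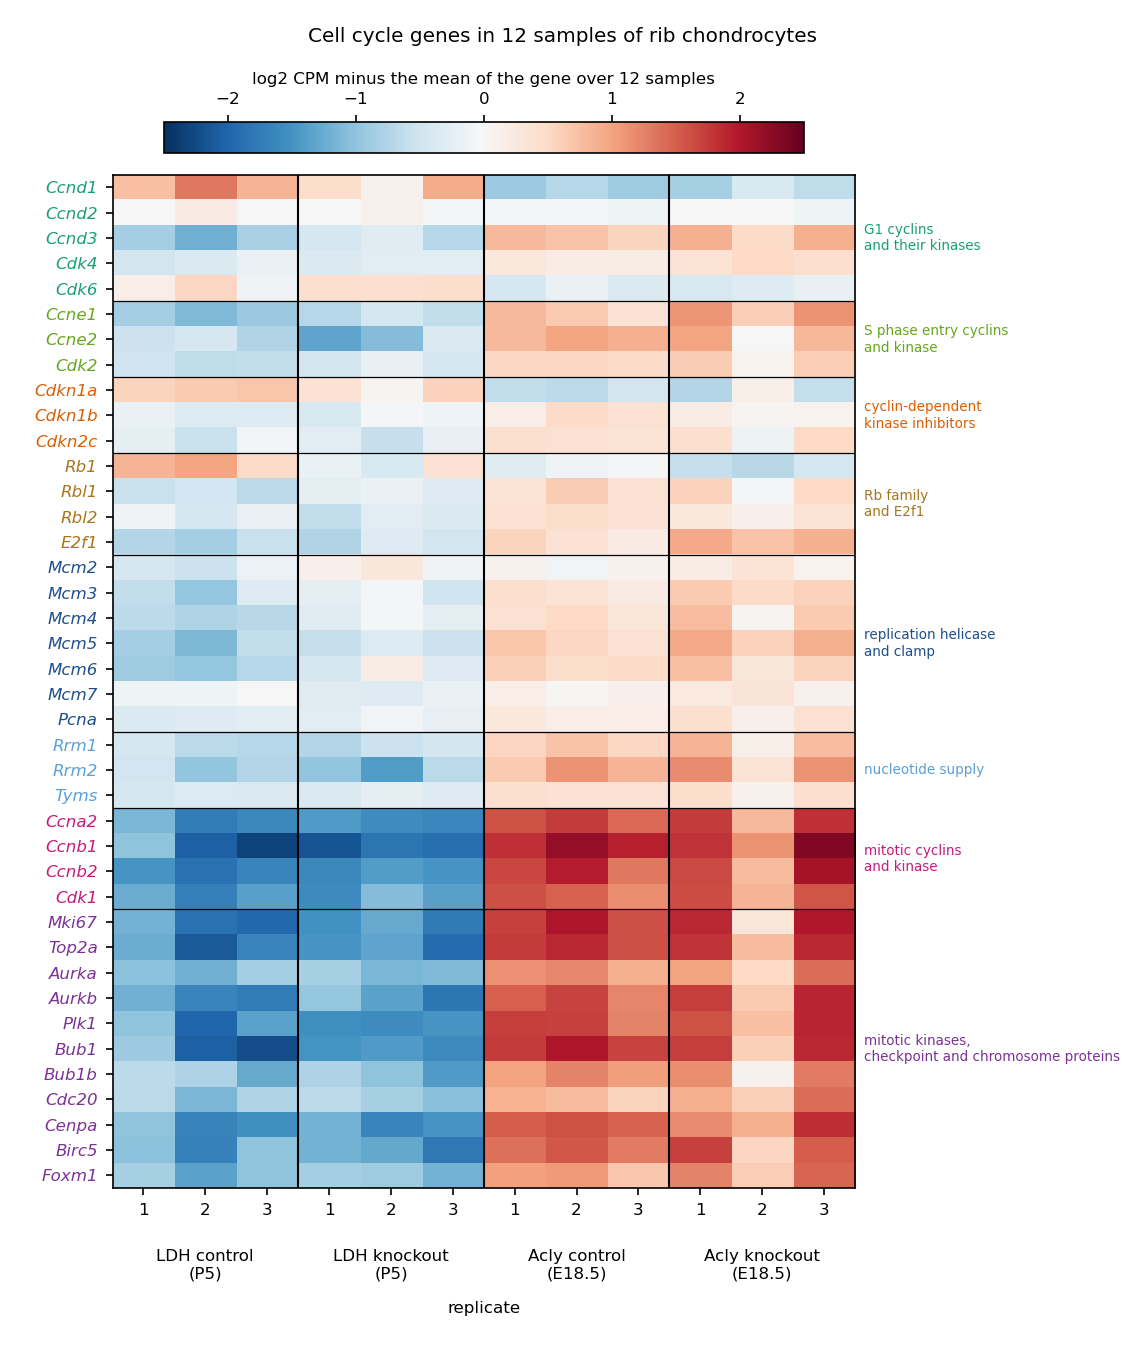
Levels of the 40 cell cycle genes (rows, by role) in the 12 samples (columns, by group and replicate), as log2 CPM minus the mean of the gene over the 12 samples. The mitotic genes at the bottom are low in all 6 P5 samples and high in the E18.5 samples, with Acly knockout replicate 2 paler than the other 5 E18.5 samples.

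Compared per transcript length, in the deposited TPM (transcripts scaled to a fixed total per library), the highest levels were those of inhibitor, G1 and replication genes. Cdkn1a, which encodes the inhibitor p21, had the highest level of the 40, at 2972 ± 151 TPM in LDH controls and 1441 ± 104 TPM in Acly controls (SD, n = 3). Cdk4, the G1 kinase, came next at 531 ± 38.2 and 862 ± 20.3 TPM. Mcm7 (155 ± 1.67 TPM), Ccnd2 (135 ± 15.5 TPM), Pcna (132 ± 3.98 TPM) and Ccnd1 (121 ± 30.9 TPM) followed in LDH controls, and Ccnd2 and Ccnd1 there did not differ beyond their spread. The bottom of the order in LDH controls was mitotic: Ccnb1 stood at 1.07 ± 0.552 TPM, Ccnb2 at 0.997 ± 0.129 TPM and Bub1 at 0.407 ± 0.221 TPM. In Acly controls the lowest levels were those of Cdk6 (3.96 ± 0.515 TPM) and Bub1 (4.91 ± 0.812 TPM), while Top2a, the topoisomerase of dividing cells, reached 38.2 ± 4.86 TPM.

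The largest differences among these genes lay between the 2 control groups. Relative to the LDH controls at P5, 34 of 40 genes were higher and 4 were lower in the Acly controls at E18.5, where 29.4% of all 14251 genes tested were higher and 25.7% lower. At least 2-fold higher were 26 of the 40, against 16.6% of all genes. The median difference was 1.38 over the 40 genes and 0.02 over all genes tested. The values of the groups did not overlap for any of the 40 (35 higher, 5 lower), which also held for 65.4% of all genes. Age, mouse line and any difference in library batch coincide with these groups and cannot be told apart. In bulk RNA, fewer cells of a type and less RNA per cell cannot be told apart either.

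**Figure D2:**
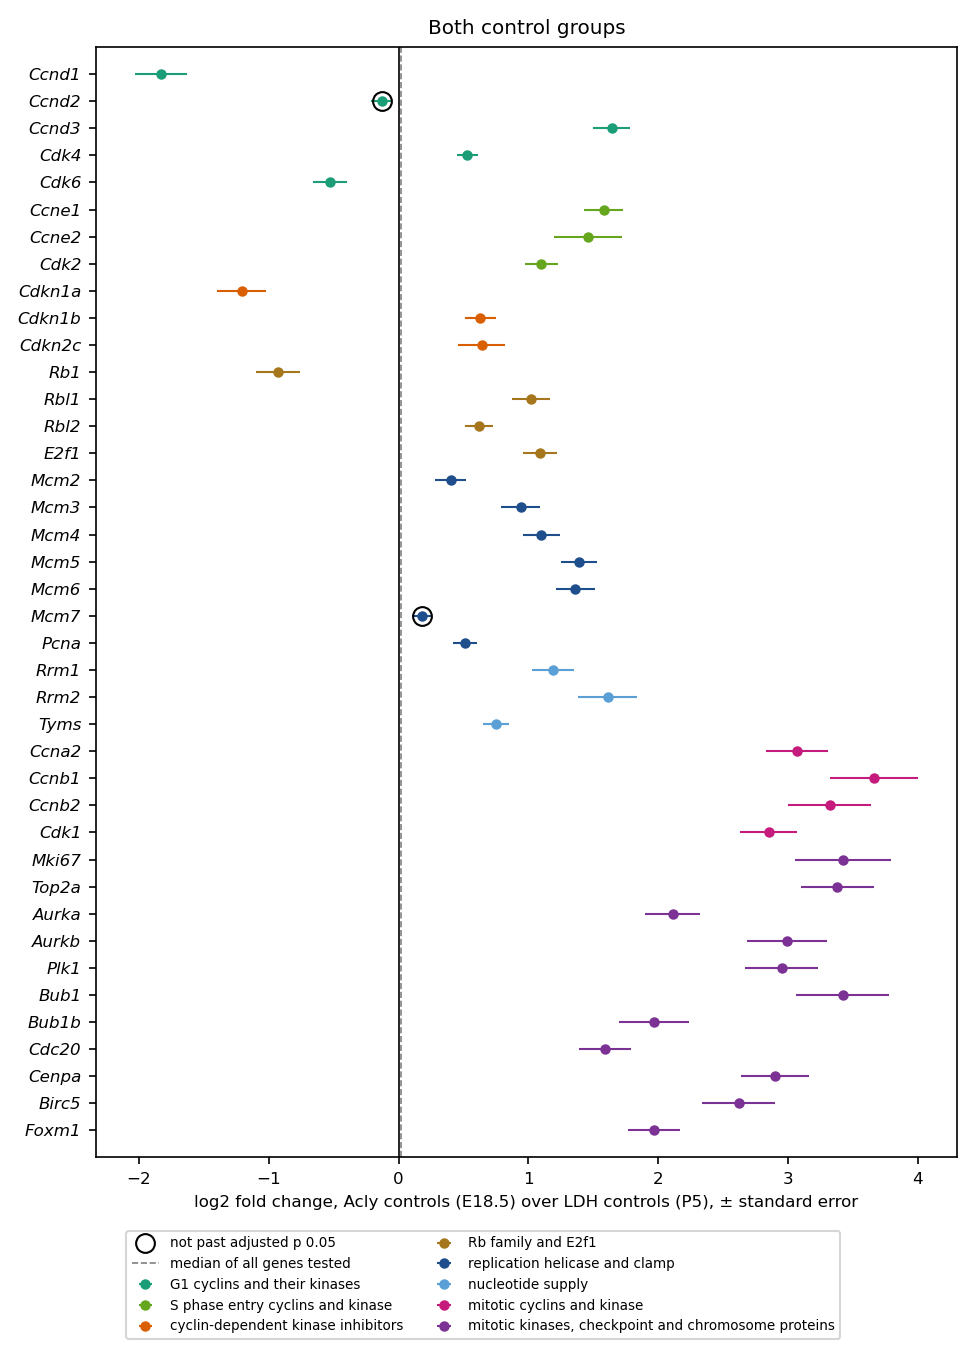
Log2 fold change of each of the 40 genes between Acly controls (E18.5) and LDH controls (P5), with its standard error, coloured by role. All 15 mitotic genes lie between 1.59 and 3.66, the open circles mark Ccnd2 and Mcm7, which did not pass, and the dashed line is the median of all genes tested (0.02).

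All 15 mitotic genes were higher in Acly controls, with a median of 2.95 and a range from 1.59 (Cdc20) to 3.66 (Ccnb1). Cdk1, the kinase that drives entry into mitosis, was at 36.1, 32.8 and 26.4 CPM in Acly controls and at 5.0, 3.59 and 4.58 CPM in LDH controls. The lowest Acly control thus lay far above the highest LDH control, a difference of 2.85 ± 0.22 (7.23-fold, edgeR adjusted p = 6.1e-07). Its partner cyclin A2, Ccna2, was at 46.2, 52.0 and 41.1 CPM against 6.97, 4.6 and 5.01 CPM (3.07 ± 0.24, edgeR adjusted p = 7.72e-07). Cyclin B1, Ccnb1, was at 15.2, 19.8 and 16.5 CPM against 2.13, 1.05 and 0.868 CPM, the widest difference of the 40 genes at 12.7-fold. Among LDH controls, replicate 1 held the highest value of both cyclins.

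The same pattern held for genes that mark or build dividing chromosomes. Mki67, which encodes the proliferation antigen Ki-67 on the surface of mitotic chromosomes, was at 78.2, 97.3 and 73.1 CPM in Acly controls and at 10.5, 6.59 and 6.12 CPM in LDH controls (3.42 ± 0.37, edgeR adjusted p = 7.13e-06). Top2a was at 97.5, 108 and 88.9 CPM against 12.3, 6.74 and 9.2 CPM. Bub1, a kinase of the spindle checkpoint, was at 9.94, 12 and 9.48 CPM against 1.57, 0.711 and 0.632 CPM. Mki67, Top2a, Bub1 and the cyclin gene Ccnb2 differed by 10.0-fold to 10.7-fold, and for each the lowest Acly control lay above every LDH control. Cenpa, the histone H3 variant of centromeres, was at 9.2, 9.76 and 8.88 CPM against 1.6, 1.01 and 1.11 CPM, a 7.45-fold difference. The aurora kinases Aurka and Aurkb differed by 4.32-fold and 7.96-fold, the polo kinase Plk1 by 7.74-fold and the survivin gene Birc5 by 6.16-fold. The smallest mitotic differences were those of Bub1b (3.92-fold), Foxm1, a transcription factor of mitotic genes (3.93-fold), and Cdc20, an activator of the anaphase-promoting complex (3.01-fold).

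Replication genes were higher too, by less: 9 of 10 passed, with a median of 1.02. The Mcm genes encode the 6 subunits of the replicative helicase, and 5 of the 6 passed. Mcm5 was at 101, 88.6 and 80.4 CPM in Acly controls and at 34.2, 28.5 and 40.5 CPM in LDH controls (1.39 ± 0.14, edgeR adjusted p = 3.8e-06). Mcm6 was at 119, 107 and 110 CPM against 42.8, 40.2 and 48.2 CPM, and both groups were again apart. The subunits did not move by one amount: Mcm4 differed by 1.1 ± 0.14, Mcm3 by 0.94 ± 0.15 and Mcm2 by 0.40 ± 0.12. Mcm2 did not pass without LDH control replicate 2 (0.28, edgeR adjusted p = 0.0888). Mcm7 differed by 0.18 ± 0.08 (edgeR adjusted p = 0.0777), and by 0.35 both with total counts and in limma on FPKM, where it passed (adjusted p = 0.00169 and 0.00118). Pcna, the sliding clamp of the polymerases, differed by 0.51 ± 0.09. Among enzymes of nucleotide supply, Rrm1, the large subunit of ribonucleotide reductase, was at 71.1, 80.0 and 70.6 CPM against 36.1, 30.6 and 30.1 CPM. Tyms, thymidylate synthase, was at 35.2, 34.6 and 34.2 CPM against 19.7, 21.1 and 20.9 CPM, though none of its 12 deposited counts was exactly whole, as arises when reads are shared with another locus. Rrm2, the small reductase subunit, differed by 1.61 ± 0.23.

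The G1 genes split in direction. Cyclin D3, Ccnd3, was at 221, 204 and 183 CPM in Acly controls and at 69.6, 54.4 and 71.4 CPM in LDH controls (1.64 ± 0.14, edgeR adjusted p = 1.57e-06). Cyclin D1, Ccnd1, went the other way, at 67.7, 78.5 and 68.7 CPM against 215, 319 and 229 CPM (-1.83 ± 0.20, edgeR adjusted p = 8.29e-06). Cyclin D2, Ccnd2, differed by -0.13 ± 0.08 (edgeR adjusted p = 0.188), and stood at 0.04 with total counts and 0.05 in limma on FPKM, where the median of all genes was 0.19 and 0.13. Their kinases Cdk4 (0.53 ± 0.08) and Cdk6 (-0.53 ± 0.13) also differed in opposite directions, although Cdk6 did not pass in limma on FPKM (-0.25, adjusted p = 0.0906). The genes of S phase entry were all higher. Ccne1, cyclin E1, was at 37.0, 32.9 and 27.1 CPM against 11.5, 9.77 and 11.1 CPM (2.99-fold), and Cdk2 was at 41.2, 41.2 and 40.1 CPM against 20.2, 18.4 and 18.7 CPM (2.14-fold). Ccne2, cyclin E2, differed by 2.75-fold.

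Inhibitors and Rb family genes were likewise mixed. Cdkn1a was at 1293, 1260 and 1441 CPM in Acly controls and at 2906, 3133 and 3213 CPM in LDH controls, lower in the former by 2.32-fold (-1.21 ± 0.19, edgeR adjusted p = 0.000152). Cdkn1b, which encodes p27, was higher at 20.7, 25.6 and 23.8 CPM against 16.3, 14.4 and 14.5 CPM (0.63 ± 0.12), as was Cdkn2c, which encodes p18 (0.64 ± 0.18). E2f1, the founding E2F factor, was at 37.1, 32.6 and 29.2 CPM against 15.2, 14.0 and 17.3 CPM (2.13-fold). The Rb relative Rbl1 (p107) was at 20.3, 24.8 and 21 CPM against 10.9, 11.6 and 10.1 CPM (2.03-fold), and Rbl2 (p130) differed by 1.54-fold. Rb1 itself was lower, at 19.7, 22.9 and 23.6 CPM against 43.9, 48.2 and 34.1 CPM (-0.93 ± 0.17, edgeR adjusted p = 0.000542). Ccnd1, Cdkn1a, Rb1 and Cdk6 were the 4 genes lower in Acly controls, and Rb1, Cdk6, Ccnd2 and Mcm7 were singled out after their values were seen.

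Other genes of the pathway were read from lists that do not hold the 40. Of all genes tested 29.4% were higher and 25.7% lower in Acly controls. Of 41 further mitosis genes 39 were higher and 1 was lower in Acly controls, with a median of 2.34; examples are Prc1 of the spindle midzone, at 36.2 ± 3.08 against 5.44 ± 0.855 CPM, and the phosphatase gene Cdc25b, at 25.7 ± 1.26 against 4.84 ± 0.91 CPM. Of 33 further replication genes 28 were higher and 0 lower, with a median of 1.09, among them Lig1, DNA ligase 1, at 51.9 ± 5.03 against 13.3 ± 1.32 CPM. Of 14 targets of p53, 12 were lower and 1 was higher, and Cdkn1a, itself a p53 target, was lower too. Mdm2, the ubiquitin ligase of p53, stood at 173 ± 24.7 CPM in Acly controls and 720 ± 37.8 CPM in LDH controls (SD, n = 3 each).

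Markers of other cell types differed between the same 2 groups. Markers of fibroblast and perichondrium, 8 of 8 higher in Acly controls, summed to 3382 to 3954 CPM there and 375 to 632 CPM in LDH controls. The 8 muscle markers, all higher, summed to 247 to 312 CPM against 25.5 to 46.4 CPM, and the 6 endothelial markers to 84.5 to 99.6 CPM against 10.1 to 15.5 CPM. Of the 11 chondrocyte markers 7 were higher and 1 was lower in Acly controls, with a median of 0.80, although their sum was smaller there, at 9335 to 10221 CPM against 11366 to 13243 CPM in LDH controls. Of the 6 hypertrophic chondrocyte markers 4 were higher and 1 was lower, with a median of 1.97. Their sums overlapped, at 6481 to 9467 CPM in Acly controls and 6718 to 9332 CPM in LDH controls. The part of these markers in the differences of the cell cycle genes was not tested. With total counts in place of TMM, which adds about the same amount to every gene, the median of all genes was 0.19 and that of the 40 genes 1.55.

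**Figure D3:**
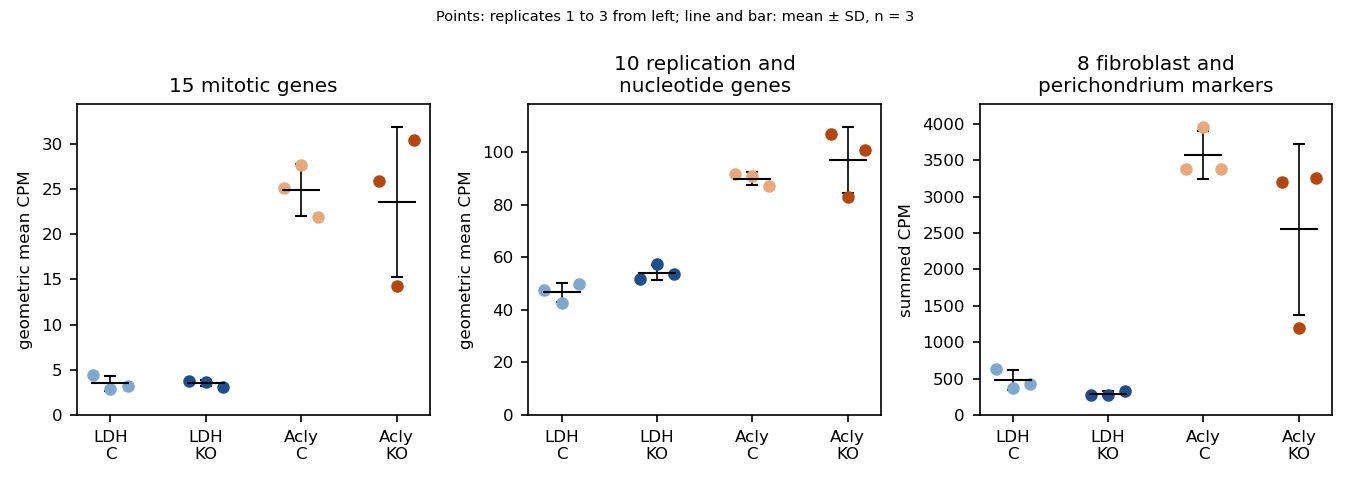
Geometric mean CPM of the 15 mitotic genes (left) and the 10 replication and nucleotide genes (middle), and summed CPM of 8 fibroblast and perichondrium markers (right), by group. Points are samples and bars are mean ± SD (n = 3). The 6 E18.5 samples lie above the 6 P5 samples in each panel, and Acly knockout replicate 2 is the lowest E18.5 sample in each, at 14.3, 83.1 and 1200 CPM.

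Loss of Ldha with 1 Ldhb allele was compared with control littermates at P5. Of the 40 genes 2 passed, both higher in the knockouts, Mcm4 and Mcm6, where 2.49% of all 13321 genes tested passed. Both encode subunits of the replicative helicase. The median difference was 0.07 over the 40 genes and 0.01 over all genes. An unadjusted p under 0.05 was reached by 11 of 40, against 19.6% of all genes, and the values of knockouts and controls did not overlap for 10 of 40 (8 higher, 2 lower), against 24.3% of all genes. The share without overlap was thus near the background, and the 2 calls are few to set against theirs.

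Mcm4 was at 39.8, 47.3 and 41.3 CPM in LDH knockouts and at 31.1, 28.9 and 30.3 CPM in their controls (0.51 ± 0.09, edgeR adjusted p = 0.0226). Mcm6 was at 59.1, 89.3 and 63.4 CPM against 42.8, 40.2 and 48.2 CPM (0.69 ± 0.15, edgeR adjusted p = 0.0451). All knockouts lay above all controls for both genes, and knockout replicate 2 was the highest for both. Mcm2 was at 201, 224 and 172 CPM against 138, 127 and 167 CPM (0.47 ± 0.13, edgeR adjusted p = 0.0873), and here knockout replicate 3 was close to control replicate 3. Mcm5 and Mcm3 differed by 0.37 ± 0.13 and 0.36 ± 0.16. Mcm7 had the opposite sign, at 170, 168 and 188 CPM against 195, 195 and 211 CPM (-0.19 ± 0.08, edgeR adjusted p = 0.219). The remaining replication genes Pcna (0.13 ± 0.08), Rrm1 (0.03 ± 0.10), Rrm2 (-0.27 ± 0.19) and Tyms (0.07 ± 0.09) did not pass.

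The Mcm calls depended on which samples were fitted. Leaving out any 1 of the LDH samples except knockout replicate 3 left 0 of 40 genes past the threshold (edgeR adjusted p of Mcm4 0.0557 to 0.0832 and of Mcm6 0.0561 to 0.121), with both still higher. Mcm4 did not pass with all 12 samples in the fit (edgeR adjusted p = 0.0797), nor Mcm6 in limma on FPKM (adjusted p = 0.0641). Without knockout replicate 3 there were 6 calls: Ccnd3, Mcm2, Mcm4 and Mcm6, higher, and Ccnd1 and Rb1, lower. The share of all genes called in that fit is not given here. With the Y-linked signal as a covariate 0 of 40 passed; Mcm4 then differed by 0.47 and Mcm6 by 0.44 (edgeR adjusted p = 0.319 and 0.523). Chondrocyte markers summed to 20785 to 31178 CPM in LDH knockouts and 11366 to 13243 CPM in controls, with knockout replicate 2 the highest, and 6 of the 10 markers tested passed. Fat cell markers summed to 28.2 to 80.5 CPM against 8.73 to 9.04 CPM, also highest in knockout replicate 2, and 5 of the 6 tested passed. Other sums were lower in LDH knockouts. Hypertrophic chondrocyte markers summed to 2831 to 5175 CPM against 6718 to 9332 CPM, although of the 6 genes 1 passed as higher and 1 as lower. Fibroblast and perichondrium markers, 1 of 8 of which passed, summed to 272 to 335 CPM against 375 to 632 CPM, and osteoblast markers, 2 of 5 tested of which passed, to 44.8 to 69.0 CPM against 105 to 120 CPM. Their part in the Mcm values was not tested.

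Outside replication, the lowest p among the 40 was that of Rb1. It was at 21.7, 18.8 and 31.6 CPM in LDH knockouts and at 43.9, 48.2 and 34.1 CPM in controls (-0.81 ± 0.19, edgeR adjusted p = 0.0539). All 3 knockouts lay below all 3 controls, but knockout replicate 3 came close to control replicate 3. Rb1 passed in 4 of 14 alternatives: in DESeq2 (adjusted p = 0.000408) and in edgeR without a filter on low counts, with all 12 samples in the fit and without knockout replicate 3. With the Y-linked covariate its difference shrank to -0.32 (edgeR adjusted p = 0.668). Ccnd3 was at 92.2, 101 and 76.8 CPM against 69.6, 54.4 and 71.4 CPM (0.46 ± 0.13, edgeR adjusted p = 0.0909), and Ccne1 was at 12.8, 15.6 and 13.7 CPM against 11.5, 9.77 and 11.1 CPM (0.38 ± 0.13, edgeR adjusted p = 0.151). Neither gene's groups overlapped. Ccnd1 (-0.46 ± 0.21) and Cdkn1a (-0.28 ± 0.12) had lower means in the knockouts, with overlapping values, and Rbl1 (0.33 ± 0.12) and Cdk2 (0.22 ± 0.10) had higher means. Differences of the other G1, inhibitor and Rb family genes ran from -0.30 (Ccne2) to 0.21 (Cdk6), with Ccnd2, Cdk4, Cdkn1b, Cdkn2c, Rbl2 and E2f1 between them.

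**Figure D4:**
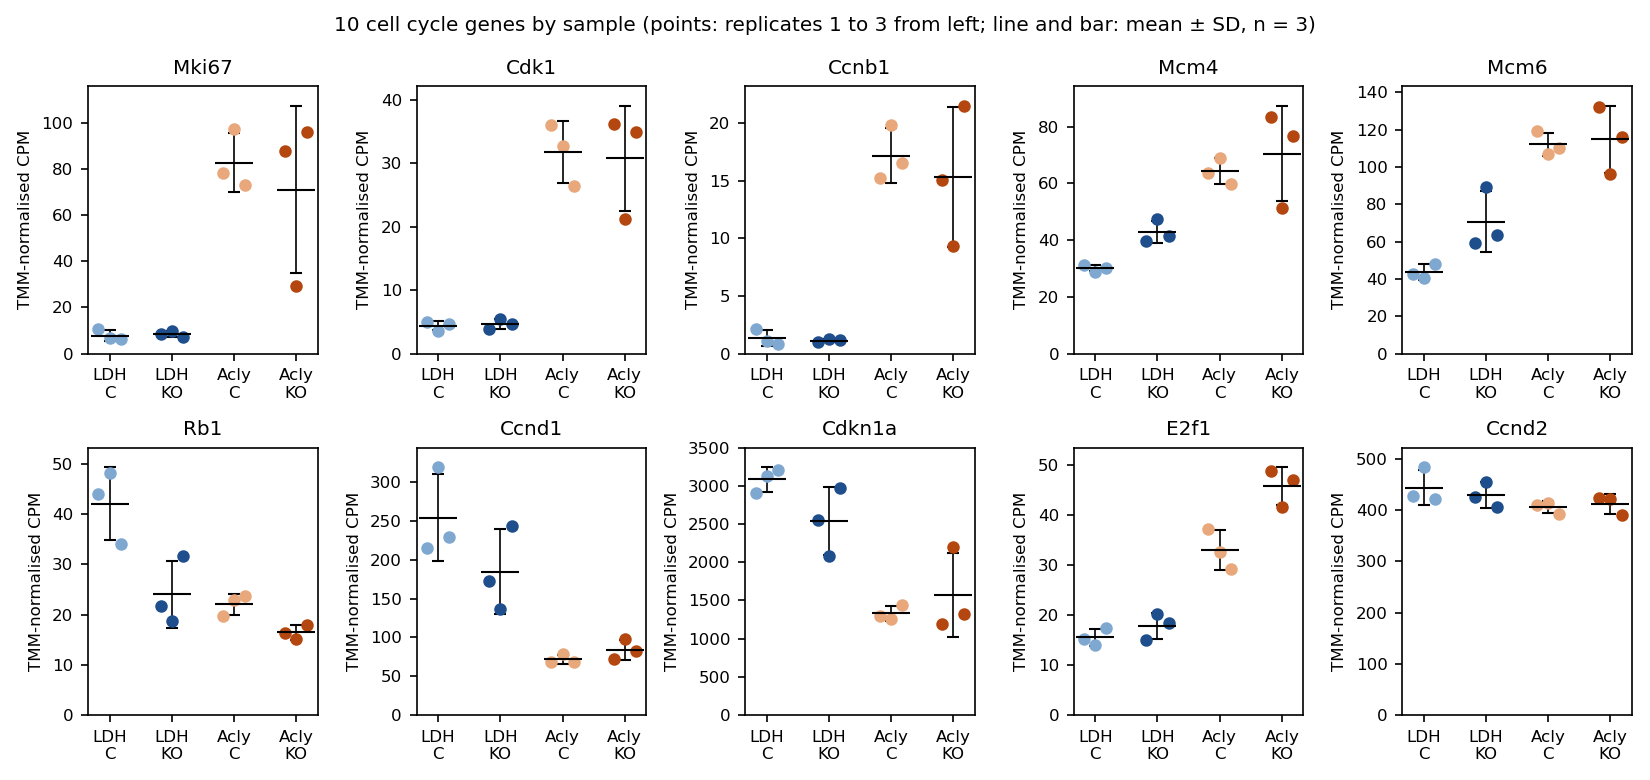
TMM-normalised CPM of 10 cell cycle genes in each sample, with the mean and SD of each group (n = 3). Mcm4 and Mcm6 are higher in all 3 LDH knockouts than in any LDH control, Rb1 values of the 3 knockouts lie below those of the 3 controls in both sets, and Ccnd2 lies between 390 and 484 CPM in every sample.

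None of the 15 mitotic genes passed in the LDH comparison (lowest edgeR adjusted p = 0.722), 0 of 15 reached an unadjusted p under 0.05, and their differences ran from -0.28 (Ccnb1) to 0.18 (Aurkb) around a median of 0.01. Mki67 was at 8.38, 9.91 and 6.98 CPM in LDH knockouts and at 10.5, 6.59 and 6.12 CPM in controls (0.12 ± 0.22). Cdk1 was at 3.92, 5.51 and 4.61 CPM against 5.0, 3.59 and 4.58 CPM (0.09 ± 0.20). The groups overlapped for all 15. At levels of 0.632 to 2.13 CPM, as in Bub1 and Ccnb1, the standard errors reached 0.38 and 0.36, so differences of that size were not detectable there.

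Among the further pathway genes, 2 of 33 replication genes passed and both were higher in LDH knockouts. Pold1, the catalytic subunit of DNA polymerase delta, was at 31.4 ± 7.03 against 16.0 ± 2.56 CPM (0.97 ± 0.17, edgeR adjusted p = 0.0223). Chaf1a, a subunit of the chromatin assembly factor that follows the fork, was at 11.1 ± 1.92 against 6.59 ± 0.864 CPM (0.75 ± 0.17, edgeR adjusted p = 0.0497). Both calls came from the same fit as those of Mcm4 and Mcm6, and they were not checked under the alternatives. The median over the 33 was 0.20, with 27 positive, and 15 of 33 reached an unadjusted p under 0.05. Of all 13321 genes tested 2.49% passed and 19.6% reached an unadjusted p under 0.05. Their differences were positive for 6792 and negative for 6529. Of the 41 further mitosis genes 0 passed, 0 reached an unadjusted p under 0.05, and their median was 0.04. Of the 14 targets of p53 0 passed and 8 had an unadjusted p under 0.05; 13 had lower means in the knockouts, with a median of -0.31, and Btg2, an antiproliferative gene, was at 278 ± 68.3 against 448 ± 28.1 CPM (-0.69 ± 0.16, edgeR adjusted p = 0.053).

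**Figure D5:**
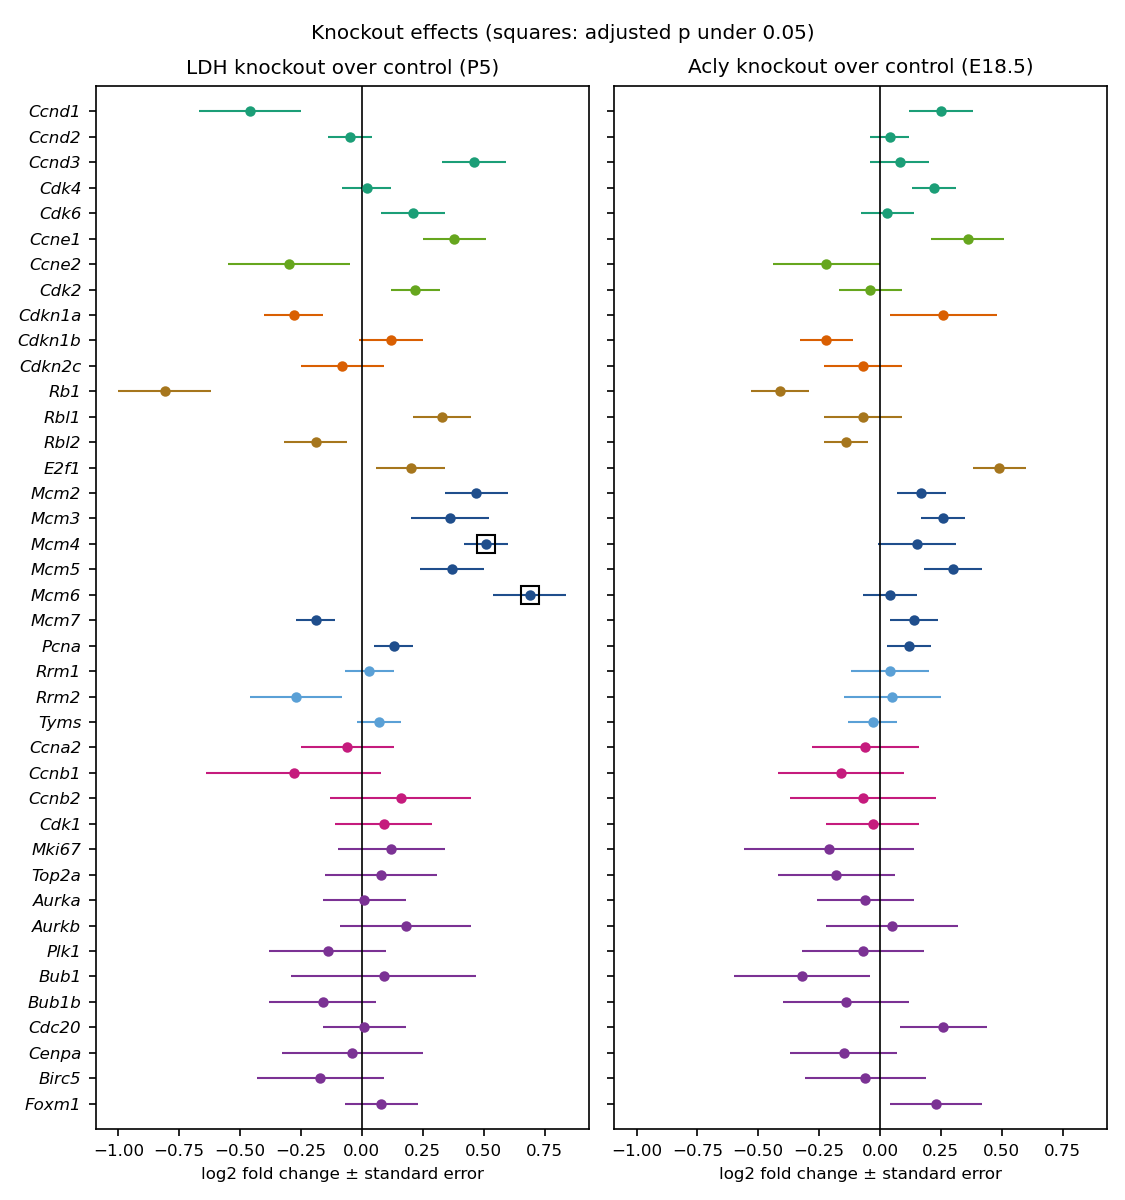
Log2 fold changes with standard errors of the 40 genes in LDH knockouts at P5 (left) and Acly knockouts at E18.5 (right), each over its own controls. Squares mark adjusted p under 0.05, which only Mcm4 and Mcm6 reached, both in the LDH comparison. The 15 mitotic genes run from -0.28 to 0.18 on the left (9 positive, 6 negative). On the right they run from -0.32 to 0.26 (3 positive, 12 negative).

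Loss of Acly was compared with control littermates at E18.5. None of the 40 genes passed in edgeR, where 0.136% of all 13973 genes tested did. An unadjusted p under 0.05 was reached by 6 of 40, against 15.8% of all genes, and the values did not overlap for 5 of 40 (3 higher, 2 lower), against 22.1% of all genes. The median difference was 0.00 over the 40 genes, with 20 positive and 20 negative. DESeq2 called 1, E2f1, and the share of all genes that it called is not given here. Chondrocyte markers summed to 15498 to 17828 CPM in Acly knockouts and 9335 to 10221 CPM in controls, and 3 of 11 passed, all higher. Osteoblast markers summed to 146 to 177 CPM against 194 to 220 CPM, with 0 of 5 tested past the threshold in edgeR and 2 at an unadjusted p under 0.05. Hypertrophic chondrocyte markers summed to 4588 to 6452 CPM against 6481 to 9467 CPM, although the 1 of 6 that passed was higher. The part of these markers in the values below was not tested.

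E2f1 was at 48.7, 41.5 and 46.9 CPM in Acly knockouts and at 37.1, 32.6 and 29.2 CPM in controls (0.49 ± 0.11, edgeR adjusted p = 0.168, DESeq2 adjusted p = 0.0177). All knockouts were above all controls. Rb1 was at 16.3, 15.1 and 18 CPM against 19.7, 22.9 and 23.6 CPM (-0.41 ± 0.12, edgeR adjusted p = 0.237), with all knockouts below all controls. Mcm3 was at 117, 104 and 111 CPM against 100, 94.5 and 86.0 CPM (0.26 ± 0.09, edgeR adjusted p = 0.266). Its groups did not overlap either. Cdk4 was at 599, 668 and 628 CPM against 568, 537 and 535 CPM (0.22 ± 0.09, edgeR adjusted p = 0.294). Mcm5 was at 120, 92.8 and 117 CPM against 101, 88.6 and 80.4 CPM (0.30 ± 0.12, edgeR adjusted p = 0.299), and Ccne1 at 45.1, 32.1 and 46.1 CPM against 37.0, 32.9 and 27.1 CPM (0.36 ± 0.15, edgeR adjusted p = 0.311). In both of these genes knockout replicate 2 was the lowest knockout and lay among the controls. The remaining G1, S phase, inhibitor and Rb family genes ran from -0.22 (Ccne2 and Cdkn1b) to 0.26 (Cdkn1a). The 10 replication and nucleotide genes ran from -0.03 (Tyms) to 0.30 (Mcm5).

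A single library stood apart in the mitotic genes of this comparison. Mki67 was at 88.1, 29.4 and 96.0 CPM in Acly knockouts and at 78.2, 97.3 and 73.1 CPM in controls (-0.21 ± 0.35). Knockout replicate 2 was far below the other 5 samples. It was the lowest of the 6 Acly samples for 14 of the 15 mitotic genes, as it was for 36.2% of all genes, and its level was a median of 0.531 times the mean of the other 5, from 0.34 times (Mki67) to 0.79 times. Cdk1 was likewise lowest in that replicate, at 36.2, 21.2 and 34.9 CPM against 36.1, 32.8 and 26.4 CPM. For the 10 replication and nucleotide genes the replicate was lowest in 6, at a median of 0.856 times the others. Its Cdkn1a was the highest of the 6, at 2202 CPM beside 1196 and 1321 CPM in the other knockouts and 1293, 1260 and 1441 CPM in controls.

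Some other markers moved with that library and others did not. Fibroblast and perichondrium markers summed to 3202, 1200 and 3258 CPM in Acly knockouts 1 to 3 and to 3382 to 3954 CPM in controls. Muscle markers summed to 227, 146 and 273 CPM against 247 to 312 CPM. By contrast, endothelial markers summed to 93.7, 98.9 and 114 CPM in the knockouts and macrophage markers to 168, 145 and 166 CPM. Chondrocyte markers summed to 15498, 17260 and 17828 CPM, and red blood cell markers to 28.9, 59.1 and 44.7 CPM, highest in replicate 2. Hypertrophic chondrocyte markers summed to 4588, 6452 and 4877 CPM and osteoblast markers to 168, 177 and 146 CPM. Both were highest in replicate 2 among the knockouts. Fat cell markers, at 88.9, 42.1 and 42.6 CPM, were not. The level of Acly in replicate 2, 48.3 CPM, was also the lowest of the 3 knockouts. The part of these differences in the mitotic values was not tested. Without knockout replicate 2 the median of the 15 mitotic genes moved from -0.07 to 0.17, with 14 positive, that of the replication and nucleotide genes from 0.13 to 0.21, with 10 of 10 positive, and that of all genes remained 0.00. E2f1 then passed (0.54, edgeR adjusted p = 0.045), the only one of the 40, beside 132 of 14145 genes tested.

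Of the further pathway genes 0 of 33 replication genes and 0 of 41 mitosis genes passed in the Acly comparison, with 2 and 1 at an unadjusted p under 0.05. Of all genes tested 0.136% passed and 15.8% reached an unadjusted p under 0.05. Their medians were 0.11 and -0.13. Without knockout replicate 2 the medians were 0.24 and 0.05. Cdt1, which loads the helicase onto origins, was at 79.6 ± 3.82 CPM in knockouts and 67.2 ± 6.81 CPM in controls (edgeR adjusted p = 0.274). Of the 14 targets of p53 0 passed, with 2 at an unadjusted p under 0.05.

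Whether the 2 knockouts acted differently on these genes was tested as the difference of their effects in 1 fit of all 12 samples. None of the 40 genes passed in edgeR or DESeq2, where 0.161% of all 14251 genes tested passed in edgeR, and 4 of 40 reached an unadjusted p under 0.05, against 13.0% of all genes. Mcm6 had the lowest p, with an LDH effect larger than the Acly effect by 0.66 ± 0.21 (edgeR adjusted p = 0.246). Its own values were 0.69 in LDH and 0.04 in Acly knockouts. Mcm7 followed with -0.32 ± 0.12 (edgeR adjusted p = 0.292), from -0.19 and 0.14. Ccnd1 differed by -0.69 ± 0.28 (edgeR adjusted p = 0.322), with knockouts at 173, 137 and 244 CPM against 215, 319 and 229 CPM in LDH and at 71.9, 97.7 and 82.1 CPM against 67.7, 78.5 and 68.7 CPM in Acly. Knockouts and controls overlapped for Ccnd1 in both sets. Cdkn1b came next (0.36 ± 0.16), with knockouts at 14.1, 17.9 and 17.1 CPM in LDH and 20.9, 19.1 and 19.4 CPM in Acly. Ccnd3 followed (0.40 ± 0.20), its Acly knockouts at 231, 174 and 231 CPM on either side of their controls. Rbl1 differed by 0.41 ± 0.21, with knockouts at 13.8, 14.4 and 12.8 CPM in LDH, above their controls, and at 24.0, 15.7 and 22.7 CPM in Acly, where replicate 2 was again the lowest. For Rb1, whose values lay below those of controls in both knockouts without passing in either, the difference of effects was -0.39 ± 0.25 (edgeR adjusted p = 0.512). Mcm4, the other gene called in LDH, had a difference of effects of 0.37 ± 0.20 (edgeR adjusted p = 0.443). The Mcm calls in the LDH comparison were therefore not shown to differ from the Acly comparison.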

How the data were processed

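Libraries were made from poly(A) RNA at BGI, per the labels' protocols, and the submitters' processing notes name HISAT2 2.0.4 and the mouse build mm9. The counting program, annotation and strand setting are not given in the sources used here. The authors deposited expected counts, FPKM and TPM per gene. Between 7.32% and 8.16% of the genes of a library had a deposited count not exactly equal to a whole number (no tolerance), as arises when reads are shared between loci. Birc5 had such counts in 6 samples and Cdk6 in 3. Without a stated strand, reads of Ccnd1, Cdk4, Ccne2 and Ccna2 cannot be told apart from those of antisense neighbours. These cover 23.4%, 19.7%, 17.4% and 12.5% of the exonic bases of the genes. Smaller shares of other genes are covered too, among them 9.17% of Rbl2. For Rb1 the antisense neighbours Rcbtb2 and Lpar6 cover 8.11% and 6.78%. The table has 17922 genes, and 26 symbols turned into dates by a spreadsheet and 2 duplicated symbols were repaired by gene ID.

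Expected counts were rounded and fitted with edgeR 4.0.16 in R 4.3.3 (TMM, filterByExpr, quasi-likelihood test, Benjamini-Hochberg over all genes tested, threshold 0.05). Each knockout comparison used its own 6 samples. The comparison of controls and the difference of effects used all 12, and 1 coefficient for each group. Standard errors were computed as the absolute log2 fold change divided by the square root of F. Deposited TPM were used to compare genes, and the deposited FPKM in an alternative with limma 3.58.1 on log2(FPKM + 1). DESeq2 1.42.0 was another alternative. The code was tested on simulated data. The 12 totals lie within a narrow range, so depth limits chiefly the genes under a few CPM.

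The genes and lists were chosen with earlier results of these data known. Per-sample values are given for genes that passed or, where over 12 passed, for the 2 with the lowest p of each role and the 4 largest changes, and, where under 4 passed, for the 6 with the lowest p. Of each pathway list, up to 3 genes with the lowest p were named.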

Additional observations from a re-analysis of the deposited data

How the results depend on the processing

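In the LDH comparison 2 genes passed, against 5 in DESeq2, 1 in limma on log2(FPKM + 1), 0 with the Y-linked covariate and 0 to 6 when samples were left out in turn. Shares of all genes called under these alternatives are not given here. With the covariate, which is nearly confounded with genotype in that set, Mcm3 (-0.14) and Mcm5 (-0.02) changed sign. In the Acly comparison the count was 0, against 1 in DESeq2 and 0 to 1 when samples were left out. Between the controls it was 38, and 37 to 39 under all alternatives; Ccnd2 changed sign with total counts (0.04) and in limma on log2(FPKM + 1) (0.05). For the difference of effects it was 0 in edgeR, DESeq2 and limma under every alternative run. The cause of these changes was not tested, except that leaving out a sample leaves fewer samples and that total counts shift every gene alike. With the replicate number as a replicate block the counts were 2, 0, 38 and 0. Nothing in the labels pairs the numbers: same-numbered knockout and control samples deviated with correlations of -0.174 to 0.0639 (LDH) and -0.291 to -0.103 (Acly), and 1 of 6 and 0 of 6 samples correlated best with their own number.

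Groups of 3 limit every comparison, and the small differences of low genes such as Bub1 and Ccnb2 at P5 could not be resolved.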

Other observations

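Lists of related genes outside the 40 were also read between the 2 control groups, where 29.4% of all genes were higher and 25.7% lower in Acly controls. Of 18 checkpoint and repair genes 14 were higher in Acly controls at E18.5 and 0 were lower, with a median of 1.35 beside 0.02 for all genes. Clspn, the Chk1 adaptor claspin, was at 19.5 ± 2.81 against 2.81 ± 0.579 CPM (2.80 ± 0.27, edgeR adjusted p = 2.82e-06), and Pkmyt1, an inhibitory kinase of Cdk1, was at 55.8 ± 6.78 against 9.01 ± 1.12 CPM (SD, n = 3 each). Of 15 genes of the E2F, DREAM and MuvB complexes only 5 were higher and 2 lower, with a median of 0.13. The 3 with the lowest p were E2f2, at 7.59 ± 0.33 against 1.12 ± 0.464 CPM, E2f8, at 15.7 ± 3.45 against 2.61 ± 0.424 CPM, and Mybl2, which encodes the MuvB partner B-Myb, at 18.1 ± 3.25 against 3.79 ± 0.185 CPM.

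Among genes outside the 40 that are kinase inhibitors by name, 4 of 5 could be tested between controls. In Acly controls 3 were higher (Cdkn1c, Cdkn2d and Cdkn3) and 1 was lower. Cdkn3 was at 3.32 ± 0.578 against 0.366 ± 0.202 CPM, and its name alone placed it in this list. Cdkn1c, the imprinted gene of p57, was at 96.9 ± 7.74 CPM in Acly controls and 4.78 ± 0.765 CPM in LDH controls, a difference of 4.34 ± 0.28 (edgeR adjusted p = 2.1e-07) that exceeded all 40 genes described above. An inhibitor of the cell cycle was thus higher in the same samples as the mitotic genes. In the knockout comparisons 0 of these genes, 0 of the 18 checkpoint and repair genes and 0 of the 15 E2F, DREAM and MuvB genes passed, with 1, 5 and 1 at an unadjusted p under 0.05 in LDH and 1, 0 and 0 in Acly. Of all genes tested 19.6% reached that level in LDH and 15.8% in Acly. Cdkn2b, which encodes p15, had 9.99 ± 1.52 CPM with Acly deleted and 5.9 ± 0.191 CPM in the controls (0.78 ± 0.16, edgeR adjusted p = 0.142).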
